A study of Mus musculus with 16 samples.

Results

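The comparison addressed whether loss of Spdef changed the same genes in colonic goblet cells as in the rest of the colon epithelium. For each gene, the genotype difference in the goblet cell fraction was set against the genotype difference in the other fraction, and the difference between them, called the interaction here, was tested. All 16 libraries of the series entered this comparison, and 12915 of the 21442 genes in the count table had enough counts to be tested. Chgb, Abcc8, B3gnt6 and Guca2a mark the main patterns and are described in every library.

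The colon epithelium renews itself from crypt stem cells, which give rise to absorptive colonocytes and to several secretory cell types. Goblet cells make and release mucins, enteroendocrine cells release peptide hormones and serotonin from granules, and tuft cells are chemosensory cells that make eicosanoids and other signals. Spdef is an ETS family transcription factor of the secretory branch, best known for its role in goblet cell maturation.

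RNA was sequenced from sorted cells of distal colon from mice aged 6–8 weeks. Every mouse carried the RedMUC298trTg reporter, in which mCherry marks goblet cells, so the controls (WT) were reporter mice and the other genotype was the reporter on a Spdef -/- background (SpdefKO). Cells with mCherry made up the goblet cell fraction (GC) and cells without it, labelled colonocytes, the remaining epithelium (EC). The groups WT_GC, SpdefKO_GC, WT_EC and SpdefKO_EC held 4 libraries each. The sort collects cells by the reporter, so a goblet cell with little mCherry would fall into EC, and lysates of GC and EC were purified on different columns, which cannot be told apart from the fraction. Whether each library is a mouse of its own is not in the labels, so the tests rest on library-to-library spread, which may be technical.

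The libraries held 10085637–17111987 counts assigned to genes. The fractions matched their labels by their markers. In GC the 6 goblet markers (Muc2, Fcgbp, Zg16, Clca3, Tff3 and Spdef) summed to 41107–47003 counts per 1000000 counts (CPM) in WT and 46454–59982 CPM in SpdefKO, against 279–356 and 217–287 CPM in EC. In EC the 6 absorptive markers (Slc26a3, Slc9a3, Car1, Car4, Aqp8 and Krt20) summed to 7593–8496 CPM in WT and 7112–9146 CPM in SpdefKO, against 221–322 and 334–515 CPM in GC. Spdef itself was not lower in libraries labelled SpdefKO_GC. WT_GC libraries 9, 11, 13 and 18 had 280.0, 306, 281 and 315 CPM and SpdefKO_GC libraries 3, 5, 7 and 19 had 369, 373, 446 and 294 CPM. A count over the whole gene does not show which part an allele removes, so SpdefKO here means libraries with that label. The sources used here give no strand setting for the counting, so values are uncertain for genes that overlap another. Genes named by the rule given below were checked for overlap with other tested genes. Named genes with an overlap and values printed here are Muc4, Pla2g2a, Pla2g5, Kdelr3, Cacna1d, Pmm2, Txndc11, Txndc12, Avil, Trpm5, Irf7 and Tiam2. The other list members with values printed here were not checked.

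The interaction passed the test for 1231 genes, 9.53% of those tested (edgeR quasi-likelihood test, Benjamini-Hochberg adjusted p under 0.05). In 630 genes (4.88%) the genotype difference was higher in GC than in EC, and in 601 genes (4.65%) it was lower. For 367 genes (2.84%) the fractions differed at least 2-fold. At an unadjusted p under 0.05 there were 3128 genes. Without library SpdefKO_EC 4, WT_EC 12 or WT_EC 17 the lower genes numbered 387, 394 and 388. Libraries of adjacent numbers deviated together, and with these pairs as a block 1654 genes (12.8%) were higher and 1675 (13%) lower, including all of the 1231.

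Within each fraction the numbers of changed genes differed. Between SpdefKO_GC and WT_GC 2764 genes (21.4%) changed, 1342 (10.4%) higher and 1422 (11%) lower, with 459 (3.55%) at least 2-fold. Between SpdefKO_EC and WT_EC 1631 genes (12.6%) changed, 787 (6.09%) higher and 844 (6.54%) lower, with 371 (2.87%) at least 2-fold. Of the 587 genes called in both fractions, 471 changed in the same direction and 116 in opposite directions. The median log2 genotype difference over all tested genes was 0.0014 in GC and 0.0050 in EC, and the median interaction was -0.020.

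A change counted as limited to a fraction where the gene was called there, the interaction was called, the other fraction had at least 1 CPM in either genotype, and its 95% interval lay within 1.5-fold either way. By this rule 557 genes were limited to goblet cells, 184 higher and 373 lower, and 163 to EC, 94 higher and 69 lower in SpdefKO_EC. Among the 557 genes 3 also had a small call in EC, and among the 163 genes 1 had one in GC. Opposite changes were called in 116 genes, 83 higher in GC and lower in EC and 33 the other way. The remaining genes with an interaction mostly had a wide interval in the other fraction. These were 145 genes changed in GC and 68 changed in EC. A further 39 genes changed in GC were under 1 CPM in both EC groups, and 14 changed in EC were under 1 CPM in both GC groups. In 23 genes both fractions moved in the same direction by different amounts, and in 106 genes neither fraction alone passed.

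**Figure D1:**
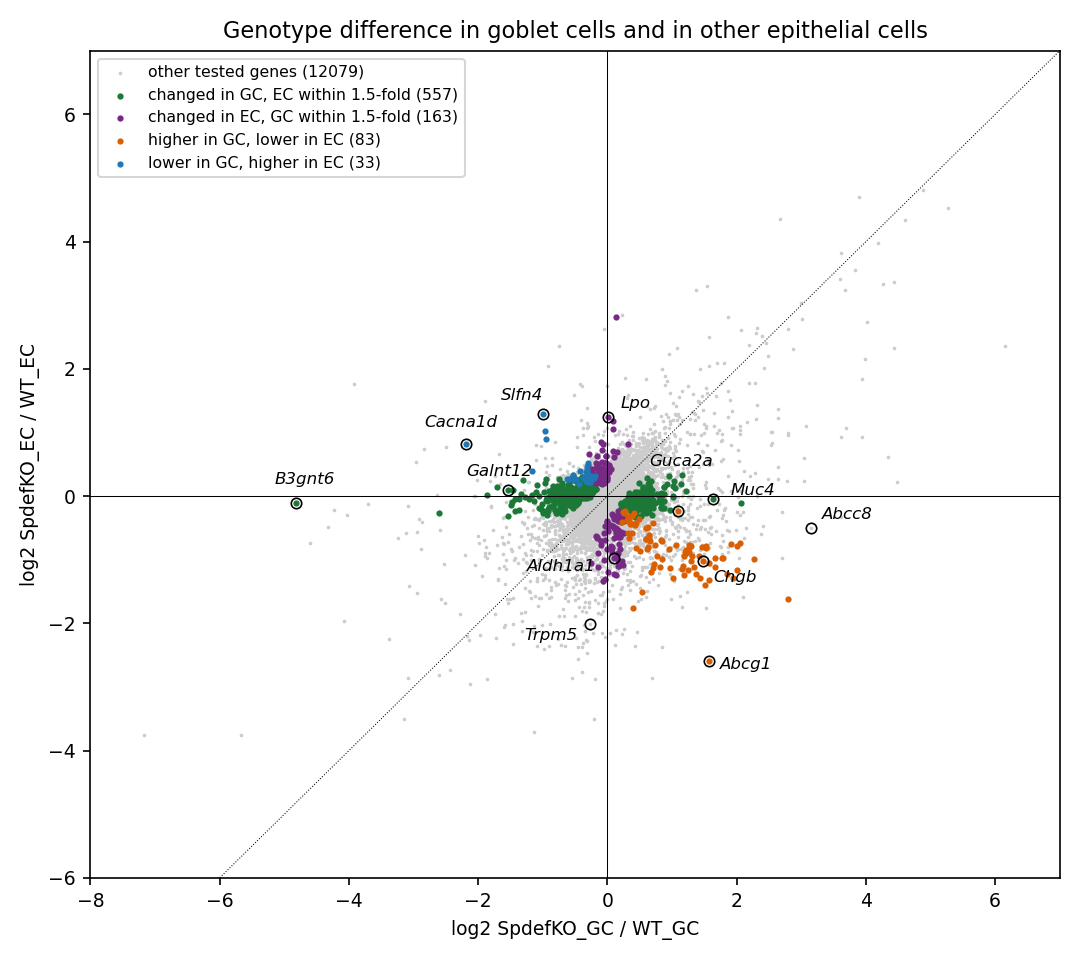
Log2 genotype difference in GC (x axis) against that in EC (y axis) for the tested genes, 1 point per gene, coloured by pattern, with equal differences on the dotted line (1 tested gene lies beyond the axes). The 557 genes limited to goblet cells spread along the x axis, the 163 limited to EC along the y axis, and the 83 genes higher in GC and lower in EC fill the lower right, with Chgb and Abcg1 among them.

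The counts depended on single libraries to different degrees. With 1 library left out, the number limited to goblet cells ran from 372 without WT_GC 13 to 617 without SpdefKO_EC 6 or WT_EC 14. The number limited to EC was 74 without WT_EC 17, 84 without SpdefKO_EC 4, 101 without WT_EC 12, 102 without WT_EC 10, 107 without WT_GC 11 and 305 without SpdefKO_EC 6. With the pairs as a random block (limma-voom) 1106 genes were limited to goblet cells and 421 to EC.

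Many genes of enteroendocrine cells were higher in SpdefKO_GC than in WT_GC and lower in SpdefKO_EC than in WT_EC. Chgb, a granin of hormone granules (chr2:132781642-132795079, GRCm38), stood at 39.6, 59.4, 43.7 and 47.0 CPM in WT_GC libraries 9, 11, 13 and 18 and at 102, 142, 142 and 144 CPM in SpdefKO_GC libraries 3, 5, 7 and 19. In WT_EC libraries 10, 12, 14 and 17 it stood at 293, 339.6, 396 and 331 CPM, and in SpdefKO_EC libraries 4, 6, 8 and 20 at 197, 174, 163 and 133 CPM. The genotypes did not overlap in either fraction, and every GC library lay below every WT_EC library. Chgb rose in GC (log2 1.48 ± 0.14, adjusted p = 1.97e-06; estimate ± standard error) and fell in EC (log2 -1.03 ± 0.14, adjusted p = 0.000206), an interaction of 2.50 ± 0.20 (adjusted p = 1.92e-06). In bulk RNA, a different number of cells of a type and a different amount of RNA per cell cannot be told apart.

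Of the hormone and serotonin genes, Gcg, Tph1, Sct and Insl5 rose in GC and fell in EC. Gcg, the proglucagon gene, was at 9.73, 11.3, 8.64 and 10.9 CPM in WT_GC and 25.1, 39.6, 34.0 and 30.6 CPM in SpdefKO_GC. In EC it was at 40.8, 52.6, 55.2 and 52.1 CPM in WT and 34.1, 25.4, 25.0 and 16.6 CPM in SpdefKO. All SpdefKO_GC libraries were above all WT_GC libraries and all SpdefKO_EC libraries below all WT_EC libraries (interaction log2 2.65 ± 0.25, adjusted p = 4.77e-06). Tph1, the rate-limiting enzyme of serotonin synthesis in the gut, was at 5.73, 6.14, 4.58 and 5.70 CPM in WT_GC and 9.70, 16.5, 17.9 and 22.5 CPM in SpdefKO_GC, and at 50.8, 53.2, 56.0 and 55.9 CPM in WT_EC and 33.7, 25.3, 24.1 and 21.0 CPM in SpdefKO_EC. Its genotypes were also separate in both fractions (interaction log2 2.63 ± 0.27, adjusted p = 1.02e-05). Sct, which encodes secretin, rose in GC and fell in EC as well (interaction log2 2.67 ± 0.28, adjusted p = 6.99e-06).

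Of 10 tested genes of hormones and serotonin, 6 had a higher interaction and none a lower one (median 2.09). In GC 6 rose, and in EC 5 fell (3 without WT_EC 17). Sst, the somatostatin gene, fell in EC (log2 -1.63, adjusted p = 0.000637) and had a log2 difference of -0.19 in GC (adjusted p = 0.718). Cck, the cholecystokinin gene, had an interaction of 2.19 on the log2 scale that did not pass (adjusted p = 0.0594). Tac1, Ddc and Slc18a1 had interactions of 0.051, 0.32 and 0.59 that did not pass either. With the pairs as a block, which called 12.8% of all tested genes higher, 8 of the 10 genes were higher. Cck (adjusted p = 0.00118) and Ddc (adjusted p = 0.0149) were among them.

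Granins and prohormone-processing genes had 10 higher and 1 lower interaction among 13 tested members (median 2.06). In GC 8 rose (5 without SpdefKO_GC 19) and 2 fell, beside 10.4% and 11% of all tested genes. In EC 9 fell, beside 6.54% of all tested genes. Chga, chromogranin A, was at 15.6 and 34.8 CPM in WT_GC and SpdefKO_GC, and at 101 and 45.6 CPM in WT_EC and SpdefKO_EC (interaction log2 2.29 ± 0.22, adjusted p = 4.39e-06). Cpe, the carboxypeptidase that trims prohormones, had an interaction of 2.11 ± 0.27 (adjusted p = 6.15e-05). The exception was Ptprn2, a membrane protein of dense-core granules, which fell in both fractions and more in GC (log2 -1.30) than in EC (log2 -0.75). Pcsk1, a prohormone convertase, fell in both fractions (log2 -0.47 in GC and -0.84 in EC) with no interaction call (adjusted p = 0.268).

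Transcription factors of the enteroendocrine lineage showed the pattern more through GC than through EC. Of 15 tested, 12 had a higher interaction and none a lower one (median 1.83), with 11 higher in GC and 4 lower in EC (2 without SpdefKO_EC 8 or WT_EC 12). Neurog3, which starts the lineage, was at 0.0666, 0.558, 0.318 and 0.178 CPM in WT_GC and 2.12, 2.43, 0.848 and 2.49 CPM in SpdefKO_GC. In EC it was at 1.33, 1.03, 1.16 and 0.954 CPM in WT and 0.8293, 0.653, 0.390 and 0.313 CPM in SpdefKO. The genotypes were separate in each fraction, at levels near or under 1 CPM in most groups, and Neurog3 rose in GC (log2 2.70 ± 0.48, adjusted p = 0.000192) but did not pass in EC (log2 -0.98 ± 0.43, adjusted p = 0.132). Its interaction was 3.68 ± 0.65 (adjusted p = 0.000729). Neurod1, which acts after Neurog3, had an interaction of 2.44 ± 0.40, and Lmx1a, a factor of serotonin-producing cells, one of 2.03 ± 0.26. Across all single libraries left out, the counts of higher interactions stayed at 5–6 for hormones, 9–10 for granins and 12 for these factors.

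Abcc8 encodes SUR1, the regulatory subunit of ATP-sensitive potassium channels, and lies at chr7:46104523-46180039. It was at 1.199, 2.01, 1.46 and 1.51 CPM in WT_GC and 15.4, 13.2, 16.5 and 10.6 CPM in SpdefKO_GC, and at 2.35, 3.40, 2.83 and 3.16 CPM in WT_EC and 3.19, 1.44, 2.08 and 1.36 CPM in SpdefKO_EC. Abcc8 rose in GC (log2 3.15 ± 0.24, adjusted p = 1.85e-08), and the SpdefKO_GC libraries lay above the libraries of all other groups. In EC the genotypes overlapped (log2 -0.50 ± 0.25, adjusted p = 0.199), and the 95% interval of -1.03 to 0.029 on the log2 scale was too wide to call the change limited to goblet cells. Kcnj11, which encodes the pore of the same channel, had an interaction of 2.69 ± 0.57 (adjusted p = 0.00365). Of 22 tested genes of excitability and stimulus-secretion coupling 15 had a higher interaction and none a lower one (median 1.66). In GC 12 were higher and 3 lower, beside 10.4% and 11% of all tested genes. In EC 13 were lower (8 without WT_EC 17), beside 6.54% of all tested genes. With the pairs as a block 18 had a higher interaction and 3 a lower one (Cacna1h, Kcnh6 and Syt7). The block called 12.8% of all tested genes higher and 13% lower. Leaving out SpdefKO_GC 5 gave 1 lower interaction. The calcium channel gene Cacna1d, which had a lower interaction (below), was not on this list. Rab3c, a GTPase of regulated exocytosis, had an interaction of 3.22 ± 0.38, and Ret, a receptor tyrosine kinase, one of 2.98 ± 0.30.

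**Figure D2:**
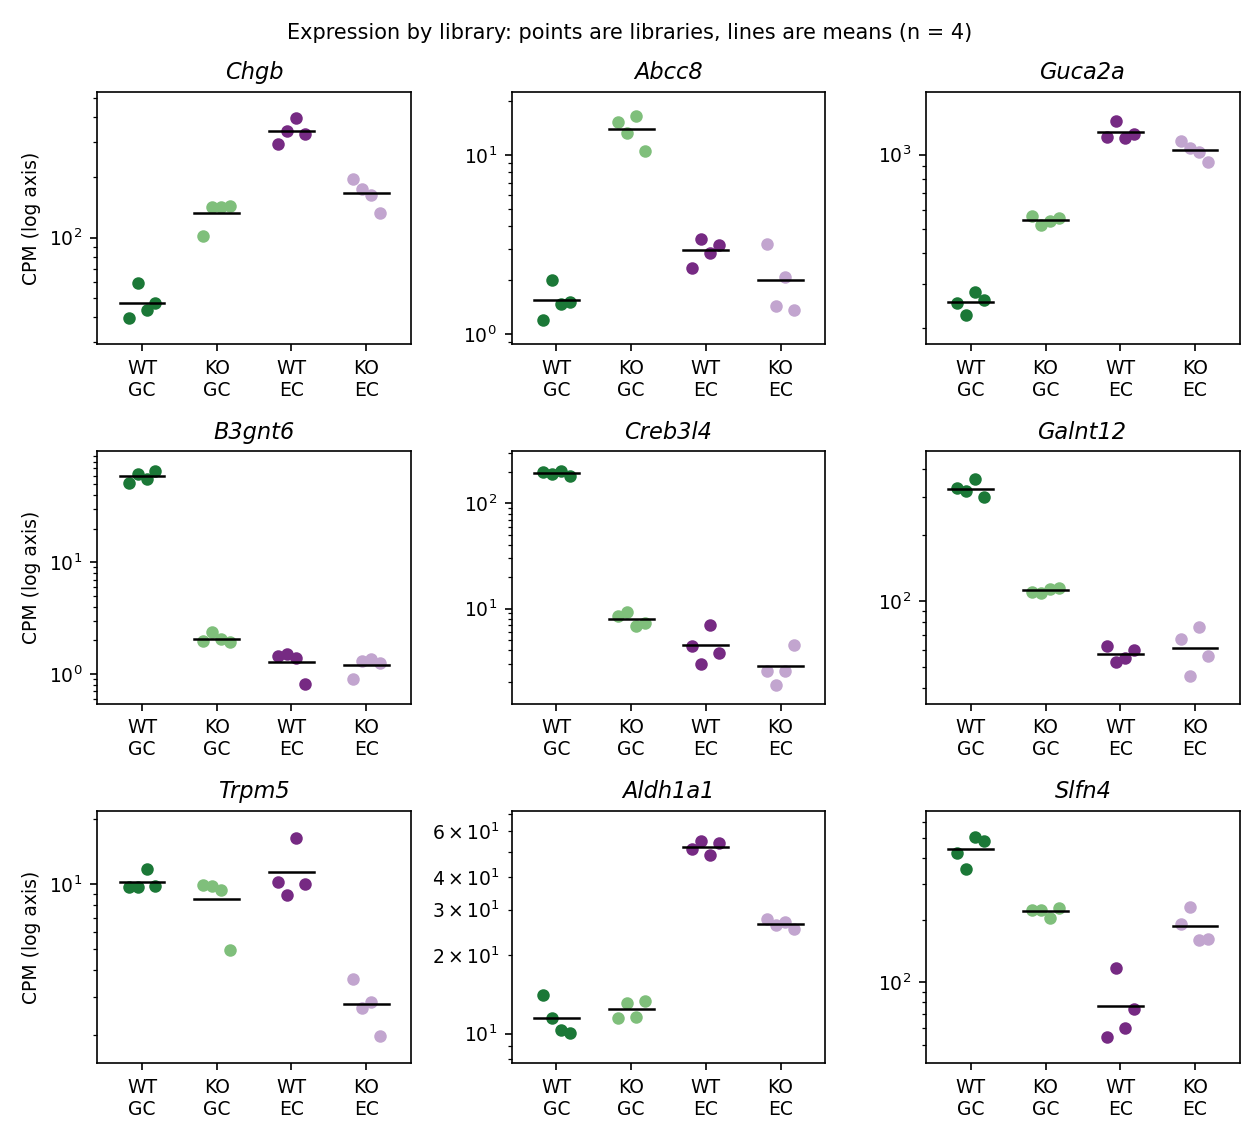
CPM of 9 genes in each library on log axes, with 1 point per library and a line at the mean of the 4 libraries of a group (KO stands for SpdefKO). Chgb, Abcc8 and Guca2a are higher in SpdefKO_GC than in WT_GC, B3gnt6, Creb3l4 and Galnt12 are lower in SpdefKO_GC than in WT_GC, Trpm5 and Aldh1a1 are lower in SpdefKO_EC than in WT_EC, and Slfn4 is lower in SpdefKO_GC and higher in SpdefKO_EC than in WT.

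The 7 markers used for enteroendocrine cells (Chga, Chgb, Gcg, Pyy, Insl5, Tph1 and Neurod1) summed to 87.0–123 CPM in WT_GC, 204–314 in SpdefKO_GC, 553–747 in WT_EC and 248–414 in SpdefKO_EC. In WT these markers were thus carried mainly by the fraction without mCherry, whereas in SpdefKO the range of GC overlapped that of EC. All 7 rose in GC, and Chga, Chgb, Gcg, Insl5 and Tph1 fell in EC. None was at 0 in any group. The part that a shift of such cells between the sorted fractions has in these interactions was not tested.

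**Figure D3:**
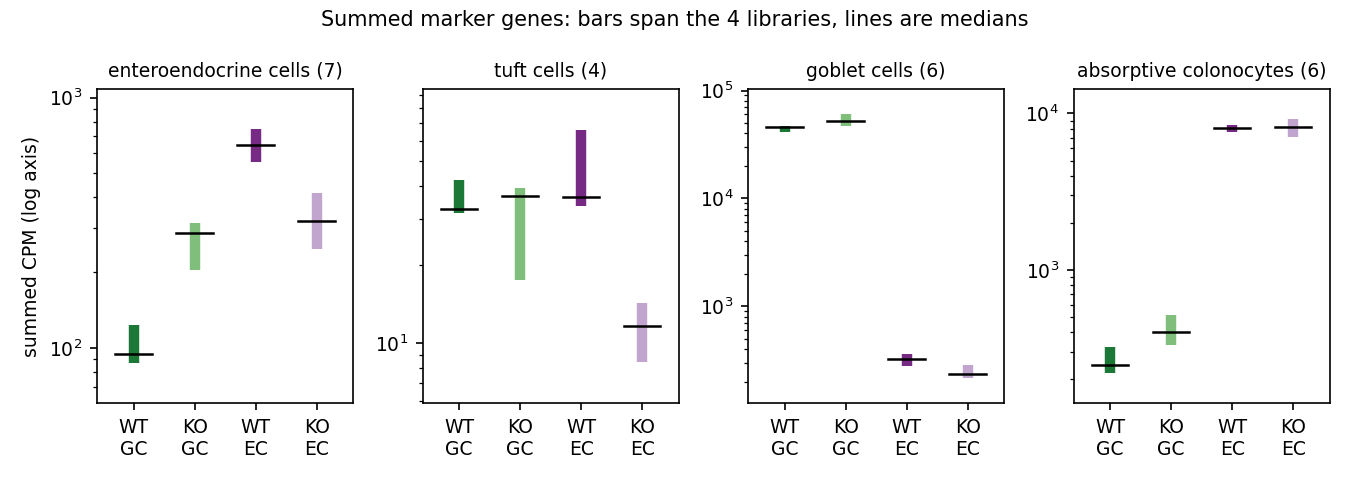
Summed CPM of marker genes of 4 cell types on log axes, with bars from the lowest to the highest of the 4 libraries of a group and lines at their median. Enteroendocrine markers run from 87.0–123 CPM in WT_GC to 204–314 CPM in SpdefKO_GC and are lower in SpdefKO_EC than in WT_EC, whereas tuft markers are lowest in SpdefKO_EC.

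Over the 16 libraries, the genes with the log2 CPM most like that of Chgb were Chga (Pearson r = 0.991), Cpe (0.987) and Tph1 (0.985). Those most like Abcc8 were Pld2 (0.978), Ret (0.965) and Sct (0.941). The libraries form 4 groups, so these correlations describe the shared group pattern. Upstream bases were sought for Chga, Gcg, Tph1, Guca2a, Chgb and Cacna1d, but Chgb and Cacna1d had too few outside annotated exons. The bases upstream of the start sites of Chga, Gcg, Tph1 and Guca2a, genes that rose in GC and fell in EC, are shown. They come from the RefSeq promoter table of GRCm38.p6, cover up to 250 bases before the start outside annotated exons, and carry matches to CAGATG or CAGCTG on either strand (E-box letters, bound by factors of the Neurog3 and Neurod1 family) in capitals. CCGGAT, the core letters of SPDEF sites, was searched on both strands and occurs in none of the 4.
Chga, chr12:102554691-102554940, plus strand: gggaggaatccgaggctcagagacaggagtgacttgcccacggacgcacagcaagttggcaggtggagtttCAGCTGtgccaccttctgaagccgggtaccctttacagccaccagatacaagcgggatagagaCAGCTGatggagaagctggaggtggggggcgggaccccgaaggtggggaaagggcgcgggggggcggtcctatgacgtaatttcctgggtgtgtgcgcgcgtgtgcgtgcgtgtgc
Gcg, chr2:62483654-62483903, minus strand: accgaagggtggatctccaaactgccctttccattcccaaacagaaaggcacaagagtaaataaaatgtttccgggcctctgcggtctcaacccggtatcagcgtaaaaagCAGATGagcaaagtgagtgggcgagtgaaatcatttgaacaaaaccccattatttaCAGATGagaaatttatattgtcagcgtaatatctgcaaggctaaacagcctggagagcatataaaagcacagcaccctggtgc
Tph1, chr7:46672538-46672787, minus strand: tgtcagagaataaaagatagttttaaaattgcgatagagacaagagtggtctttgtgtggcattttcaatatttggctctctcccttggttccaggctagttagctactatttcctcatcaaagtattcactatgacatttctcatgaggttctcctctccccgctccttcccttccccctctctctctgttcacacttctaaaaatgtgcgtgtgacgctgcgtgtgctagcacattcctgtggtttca
Guca2a, chr4:119637482-119637703, plus strand: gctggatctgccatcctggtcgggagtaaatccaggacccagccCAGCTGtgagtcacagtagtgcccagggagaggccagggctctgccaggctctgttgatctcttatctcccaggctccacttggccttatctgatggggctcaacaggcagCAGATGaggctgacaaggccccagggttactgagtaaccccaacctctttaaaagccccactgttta
Chga held 2 matches to CAGCTG, Gcg 2 to CAGATG, and Guca2a 1 to each in a window of 222 bases, while Tph1 held none. Over the 32851 start sites of the table, 14.4% of the 250-base windows held CAGATG, 13% CAGCTG and 4.94% CCGGAT. A match is a run of letters and not evidence of binding.

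Guca2a (chr4:119637732-119639465) encodes guanylin, a peptide that regulates salt and water secretion through the receptor Gucy2c. It was at 252, 226, 280.4 and 260.2 CPM in WT_GC and 566, 520.3, 539 and 556 CPM in SpdefKO_GC, and at 1179, 1360.5, 1168 and 1206 CPM in WT_EC and 1138, 1065, 1023 and 931 CPM in SpdefKO_EC. The genotypes were separate in both fractions, widely in GC and by a small gap in EC. Guca2a rose in GC (log2 1.10 ± 0.078, adjusted p = 1.64e-08) and fell slightly in EC (log2 -0.24 ± 0.077, adjusted p = 0.0483), with an interaction of 1.34 ± 0.11 (adjusted p = 1.10e-06). Guca2b, the uroguanylin gene, was at 23.5, 26.4, 31.7 and 27.7 CPM in WT_GC and 75.1, 73.4, 67.6 and 79.1 CPM in SpdefKO_GC, and at 4.69, 3.71, 4.14 and 4.55 CPM in WT_EC and 3.13, 2.74, 3.96 and 1.88 CPM in SpdefKO_EC. It rose in GC (log2 1.43 ± 0.11, adjusted p = 6.52e-08), and its values in EC did not pass (log2 -0.51 ± 0.17, adjusted p = 0.0531). Gucy2c fell in both fractions (log2 -0.35 in GC and -0.20 in EC) with no interaction call (adjusted p = 0.244). The genes most like Guca2a over the libraries were Clcn5, Hk1 and Tiam2 (r = 0.973, 0.971 and 0.968).

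Other genes with opposite changes had larger differences. Abcg1, a sterol transporter, was at 10.7, 5.25, 10.5 and 9.43 CPM in WT_GC and 29.5, 21.6, 34.5 and 20.3 CPM in SpdefKO_GC, and at 21.6, 14.1, 17.6 and 34.1 CPM in WT_EC and 4.53, 3.07, 4.03 and 2.61 CPM in SpdefKO_EC. The order of the fractions was reversed between the genotypes, since WT_EC lay above WT_GC and SpdefKO_EC below SpdefKO_GC (interaction log2 4.17 ± 0.42, adjusted p = 1.15e-05). Kif5c, a kinesin heavy chain, was at 13.4, 9.88, 6.93 and 8.72 CPM in WT_GC and 33.5, 41.4, 42.9 and 39.1 CPM in SpdefKO_GC, and at 1.97, 2.69, 3.77 and 3.01 CPM in WT_EC and 1.85, 1.83, 1.23 and 1.67 CPM in SpdefKO_EC. The change was larger in GC (log2 2.01 ± 0.17, adjusted p = 1.07e-07) than in EC (log2 -0.79 ± 0.26, adjusted p = 0.0484). Rimbp2, a presynaptic scaffold, Map1b, a microtubule protein of neurons, and Vav2 had interactions of 2.79 ± 0.27, 2.75 ± 0.28 and 3.17 ± 0.37, each with opposite calls. The 83 genes of this pattern had a median log2 change of 0.97 in GC and -0.82 in EC, and they numbered 52 without WT_EC 17 and 54 without SpdefKO_EC 8.

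The reverse pattern, lower in goblet cells and higher in EC, was smaller in most of its 33 genes (median log2 -0.32 in GC and 0.29 in EC). Slfn4, an interferon-inducible Schlafen gene with similar neighbours that may share reads, was among the exceptions. It was at 422, 355, 503 and 486 CPM in WT_GC and 224, 224, 205 and 230.3 CPM in SpdefKO_GC, and at 54.5, 118, 60.4 and 74.5 CPM in WT_EC and 191, 232, 161 and 162 CPM in SpdefKO_EC. The genotypes did not overlap in either fraction, which was a condition for naming a gene of this pattern (interaction log2 -2.28 ± 0.28, adjusted p = 0.000107). Cacna1d, the pore of an L-type calcium channel, was at 6.20, 5.36, 4.77 and 6.59 CPM in WT_GC and 1.26, 1.39, 1.202 and 1.137 CPM in SpdefKO_GC, and at 0.697, 1.34, 0.653 and 0.661 CPM in WT_EC and 1.40, 1.57, 1.43 and 1.46 CPM in SpdefKO_EC. It fell in GC and rose in EC from under 1 CPM in 3 of the 4 WT_EC libraries (interaction log2 -3.00 ± 0.32, adjusted p = 6.99e-06). Abo, the blood group glycosyltransferase, was at 44.7 and 23.1 CPM in GC and 4.15 and 7.85 CPM in EC (interaction log2 -1.84 ± 0.29, adjusted p = 0.000537).

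Pmm2, a phosphomannomutase that supplies mannose for N-glycans, was at 293, 307, 303 and 294 CPM in WT_GC and 213, 192, 219.6 and 201 CPM in SpdefKO_GC, and at 123, 115, 113 and 122 CPM in WT_EC and 153, 141, 154 and 148 CPM in SpdefKO_EC. The genotypes were separate in both fractions, again a condition for naming it (interaction log2 -0.87 ± 0.084, adjusted p = 3.10e-06). Dnajc10, an ER disulfide reductase, was at 658, 595, 692 and 654 CPM in WT_GC and 579.7, 453, 582 and 469 CPM in SpdefKO_GC, and at 76.5, 70.0, 85.8 and 71.1 CPM in WT_EC and 115, 90.9, 106 and 106 CPM in SpdefKO_EC. All groups were again separate by genotype (interaction log2 -0.78 ± 0.13, adjusted p = 0.00128). Gcc2, a golgin, and Copb1, a subunit of the COPI coat, had interactions of -0.85 ± 0.091 and -0.52 ± 0.081. The 33 genes numbered 16 without WT_EC 17, 17 without SpdefKO_EC 4, 18 without WT_EC 12, 19 without WT_EC 10 and 53 without SpdefKO_EC 6, and 21 with upper-quartile scaling.

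B3gnt6, the core 3 synthase of mucin O-glycans (chr7:98192415-98199475), was the gene with the lowest interaction among those limited to goblet cells. It was at 51.8, 61.5, 56.4 and 65.9 CPM in WT_GC and 1.95, 2.36, 2.05 and 1.92 CPM in SpdefKO_GC, and at 1.46, 1.501, 1.38 and 0.808 CPM in WT_EC and 0.893, 1.31, 1.36 and 1.25 CPM in SpdefKO_EC. SpdefKO_GC was thus close to the level of EC, where the genotypes overlapped. B3gnt6 fell in GC (log2 -4.83 ± 0.14, adjusted p = 4.21e-14), and in EC the 95% interval was -0.55 to 0.34 on the log2 scale. The interaction was -4.72 ± 0.26 (adjusted p = 7.26e-09). The genes most like B3gnt6 over the 16 libraries were A4gnt, Mt3 and Casc4 (r = 0.995, 0.994 and 0.988). A4gnt and Mt3 had no count in any SpdefKO_EC library, and edgeR gave no interval for their difference in EC and no interaction call.

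Creb3l4, an ER-anchored transcription factor, and Casc4, a Golgi membrane protein now named Golm2, had the same shape with a wider interval in EC. Creb3l4 was at 199, 191, 205 and 183 CPM in WT_GC and 8.49, 9.25, 6.86 and 7.32 CPM in SpdefKO_GC, and at 4.37, 3.003, 7.04 and 3.74 CPM in WT_EC and 2.55, 1.89, 2.53 and 4.48 CPM in SpdefKO_EC (interaction log2 -3.87 ± 0.31, adjusted p = 1.92e-06). Its values in EC did not pass (log2 -0.73 ± 0.25, adjusted p = 0.0625), with 1 SpdefKO_EC library inside the WT range. Casc4 was at 66.4, 57.8, 61.7 and 80.2 CPM in WT_GC and 3.56, 3.62, 3.25 and 3.63 CPM in SpdefKO_GC, and at 1.77, 3.08, 2.395 and 2.72 CPM in WT_EC and 2.81, 1.70, 1.62 and 2.398 CPM in SpdefKO_EC (interaction log2 -4.01 ± 0.26, adjusted p = 3.04e-08). Among the 17 goblet and secretory transcription factors tested, Creb3l4 and Foxa3 had a lower interaction and none a higher one. The share called was 11.8%, close to the 9.53% of all tested genes, and the call of Foxa3 was lost in 22 of 31 alternative fits. With the pairs as a block 2 of these factors were higher (Foxa1 and Sox4) and 2 lower, where 25.8% of all tested genes were called. Leaving out SpdefKO_GC 7 gave 1 higher and 1 lower interaction.

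Galnt12, which starts mucin O-glycans, was at 328, 318, 363 and 299 CPM in WT_GC and 111, 109.5, 113 and 115 CPM in SpdefKO_GC, and at 62.3, 52.5, 55.2 and 59.5 CPM in WT_EC and 67.1, 45.3, 76.5 and 55.9 CPM in SpdefKO_EC. It fell in GC, stayed above EC, and had a 95% interval of -0.15 to 0.34 in EC (interaction log2 -1.64 ± 0.16, adjusted p = 4.39e-06). Galnt10 and Galnt7, of the same family, had interactions of -0.53 ± 0.10 and -0.53 ± 0.10. Of 11 tested GALNT genes 5 had a lower interaction and none a higher one (median -0.33), and all 5 met the definition of a change limited to goblet cells. Of 34 enzymes of O-glycan cores and extension 8 had a lower and 1 a higher interaction (median -0.16). The share called was 26.5%, beside 9.53% of all tested genes. In GC 12 were lower and 2 higher, beside 11% and 10.4% of all tested genes. In EC 3 were lower and 2 higher, close to the 6.54% and 6.09% of all tested genes. B4galnt2, a terminal N-acetylgalactosamine transferase, had an interaction of -0.75 ± 0.12.

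Other genes lower in goblet cells included transporters and channels. Slc41a2, a magnesium transporter, was at 78.3, 69.9, 74.8 and 73.1 CPM in WT_GC and 12.7, 11.4, 12.7 and 11.8 CPM in SpdefKO_GC, and at 13.4, 13.8, 14.5 and 12.995 CPM in WT_EC and 9.06, 14.2, 11.6 and 10.6 CPM in SpdefKO_EC (interaction log2 -2.34 ± 0.15, adjusted p = 2.70e-08). Kcnk6, a potassium channel, was at 143, 149.8, 163 and 146 CPM in WT_GC and 47.2, 36.3, 44.6 and 36.7 CPM in SpdefKO_GC, and at 32.0, 35.1, 35.9 and 36.9 CPM in WT_EC and 43.0, 24.9, 41.8 and 30.9 CPM in SpdefKO_EC (interaction log2 -1.88 ± 0.19, adjusted p = 7.12e-06). In both, SpdefKO_GC came close to the level of EC. Atp12a, a proton-potassium pump, was different, since it fell in GC from 331 to 120.1 CPM while EC held 958 and 1028 CPM (interaction log2 -1.56 ± 0.20, adjusted p = 0.000107). Slc12a2, the sodium-potassium-chloride cotransporter of secreting cells, had an interaction of -0.70 ± 0.13. The 373 genes in this class had a median change of -0.46 in GC and 0.06 in EC. Of them 305 were higher in WT_GC than in WT_EC, against 6945 (53.8%) of all tested genes. The WT values also enter the interaction that chose the class, so this share is partly set by the choice and is not a separate result.

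Among genes under 1 CPM in EC, a change in EC could not be measured. Of the 39 such genes changed in GC, 30 had a higher interaction and 9 a lower one. Kcne2 and Ppic were among the lower ones. Kcne2, a potassium channel subunit, fell in GC from 5.54 to 0.366 CPM, and Ppic, a cyclophilin, from 11.3 to 1.82 CPM.

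The 184 genes higher in goblet cells with a narrow interval in EC had a median log2 change of 0.52 in GC and -0.10 in EC. Of these 39 were higher in WT_GC than in WT_EC, a count that again uses the WT values by which the class was chosen. Muc4, a transmembrane mucin, was at 181, 203, 148 and 203 CPM in WT_GC and 412, 769, 474 and 638 CPM in SpdefKO_GC, and at 53.8, 79.3, 51.0 and 65.1 CPM in WT_EC and 51.1, 67.8, 71.9 and 49.0 CPM in SpdefKO_EC. The genotypes were separate in GC, a condition for naming it, and overlapped in EC (interaction log2 1.69 ± 0.28, adjusted p = 0.00147). Tff3, a trefoil peptide of mucus, was at 1507, 1211, 1671 and 1528 CPM in WT_GC and 2584, 2397, 2585 and 3317 CPM in SpdefKO_GC, and at 18.4, 19.6, 23.6 and 19.3 CPM in WT_EC and 19.8, 18.4, 19.4 and 25.2 CPM in SpdefKO_EC (interaction log2 0.85 ± 0.18, adjusted p = 0.00464). Mylk, myosin light chain kinase, and Mink1, a kinase of the Ste20 group, had interactions of 1.13 ± 0.13 and 1.06 ± 0.12. Dll1, a Notch ligand, had an interaction of 0.79 ± 0.15.

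Vim, the intermediate filament gene vimentin of mesenchymal cells, was also in this class, from 1.65 CPM in WT_GC to 6.93 CPM in SpdefKO_GC, against 6.96 and 6.33 CPM in EC. The 5 stromal and vessel markers (Col1a1, Col1a2, Col3a1, Dcn and Pecam1) summed to 1.00–1.60 CPM in WT_GC and 1.89–2.49 CPM in SpdefKO_GC, and 12 immune markers to 3.997–4.89 and 6.77–8.97 CPM. The sums of the 6 absorptive markers were higher in SpdefKO_GC than in WT_GC too, as given above. In EC the stromal sums were 7.26–23.8 and 5.63–10.97 CPM and the immune sums 12.5–15.3 and 8.45–17.9 CPM. Cd3g was at 0 in every WT_GC library. The part of such cells in the goblet-limited increases was not tested.

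Of 17 tested tuft markers 11 fell in EC and none was called in GC. Trpm5, a cation channel of chemosensory signalling, was at 9.73, 9.77, 11.8 and 9.88 CPM in WT_GC and 9.99, 9.87, 9.40 and 4.98 CPM in SpdefKO_GC, and at 10.3, 8.93, 16.4 and 10.1 CPM in WT_EC and 3.64, 2.68, 2.86 and 1.98 CPM in SpdefKO_EC. In EC all SpdefKO libraries lay below all WT libraries, whereas in GC only SpdefKO_GC 19 and WT_GC 13 stood apart from the rest. Trpm5 fell in EC (log2 -2.003 ± 0.24, adjusted p = 3.73e-05), and its interval in GC was -0.70 to 0.18 on the log2 scale (interaction log2 1.74 ± 0.32, adjusted p = 0.00194). Avil, the actin-binding protein advillin, was at 5.86, 4.74, 6.36 and 4.89 CPM in WT_GC and 8.95, 8.69, 6.86 and 5.19 CPM in SpdefKO_GC, and at 7.48, 8.69, 12.5 and 8.37 CPM in WT_EC and 3.96, 3.198, 3.70 and 3.23 CPM in SpdefKO_EC (interaction log2 1.83 ± 0.27, adjusted p = 0.000270). Hpgds, the prostaglandin D2 synthase of immune and tuft cells, was at 4.80, 3.96, 3.69 and 5.07 CPM in WT_GC and 4.99, 5.49, 4.81 and 4.34 CPM in SpdefKO_GC, and at 17.7, 19.2, 21.3 and 15.6 CPM in WT_EC and 6.89, 9.40, 7.21 and 11.3 CPM in SpdefKO_EC (interaction log2 1.28 ± 0.23, adjusted p = 0.00150). Its change met the definition of one limited to EC.

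The tuft list had 9 higher interactions and no lower one (median 1.51). Its median log2 difference was -1.68 in EC and -0.22 in GC. Without SpdefKO_GC 19, 1 of its genes rose in GC. Ptgs1, the cyclooxygenase COX-1, Plcb2, a phospholipase of taste signalling, and Dclk1, a kinase that marks tuft cells, fell in EC, with log2 changes of -2.56 ± 0.41, -1.75 ± 0.33 and -2.16 ± 0.35. Leaving out any 1 library gave 7–10 higher interactions. The 4 tuft markers Dclk1, Trpm5, Pou2f3 and Avil summed to 31.7–42.1 CPM in WT_GC, 17.4–39.3 in SpdefKO_GC, 33.6–65.8 in WT_EC and 8.45–14.2 in SpdefKO_EC, with none at 0 in any group.

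Outside the tuft list, Aldh1a1, a retinaldehyde dehydrogenase, was at 14.1, 11.4, 10.3 and 10.1 CPM in WT_GC and 11.5, 13.1, 11.6 and 13.4 CPM in SpdefKO_GC, and at 51.3, 55.0, 48.6 and 53.9 CPM in WT_EC and 27.6, 26.2, 26.8 and 25.3 CPM in SpdefKO_EC (interaction log2 1.09 ± 0.14, adjusted p = 5.30e-05). The GC groups overlapped and the EC groups did not. Kcnh2, a potassium channel, and Cacna1a, a neuronal calcium channel, also fell in EC and met the definition of a change limited to it, with interactions of 1.33 ± 0.23 and 1.24 ± 0.19.

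Fcgbp, Muc2 and Clca3, products of goblet cells, fell in EC and were not called in GC. Fcgbp, the most abundant of them in GC, was at 19323, 16619.7, 18396 and 17047 CPM in WT_GC and 18186, 25729, 16376 and 21738 CPM in SpdefKO_GC, and at 84.1, 75.7, 104 and 95.8 CPM in WT_EC and 52.0, 75.5, 52.5 and 52.8 CPM in SpdefKO_EC. The GC groups overlapped, and in EC the highest SpdefKO library lay just under the lowest WT library (interaction log2 0.83 ± 0.20, adjusted p = 0.0149). Muc2, the main secreted mucin, and Clca3, the mucus protease now named Clca1, had log2 changes of -0.78 and -0.53 in EC against 0.054 and 0.17 in GC. The list of 15 goblet mucus proteins had 6 higher interactions and none lower (median 0.62), and 3 without WT_EC 17. Guca2a, with higher levels in EC than in GC, was 1 of the 6. In EC 5 members fell and 2 rose, beside 6.54% and 6.09% of all tested genes. In GC 7 rose and 2 fell, beside 10.4% and 11% of all tested genes. Zg16 and Tff3 were not called in EC (log2 0.095 and 0.026) and rose in GC (log2 0.51 and 0.88). The 6 goblet markers summed to 279–356 CPM in WT_EC and 217–287 CPM in SpdefKO_EC, and the part of goblet cells sorted into EC was not tested.

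Increases limited to EC were mostly small (median log2 0.31 over 94 genes). Lpo, the lactoperoxidase gene, was at 16.2, 18.5, 18.8 and 17.7 CPM in WT_GC and 22.2, 15.9, 14.4 and 19.1 CPM in SpdefKO_GC, and at 15.5, 12.5, 20.3 and 12.8 CPM in WT_EC and 39.2, 33.7, 36.6 and 35.7 CPM in SpdefKO_EC. The 4 SpdefKO_EC libraries stood above all others, and their separation from WT_EC was a condition for naming Lpo (interaction log2 -1.24 ± 0.20, adjusted p = 0.000703). Kdelr3, a retrieval receptor of ER proteins, rose in EC from 4.88 to 10.1 CPM (interaction log2 -0.97 ± 0.20, adjusted p = 0.00432). The calls of Pla2g2a, Rnf39, Pla2g5 and Aldh3b2 in this class were lost in 14, 20, 5 and 2 of 31 alternative fits.

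Genes of the early secretory pathway had more lower than higher interactions, with small changes. Of 62 genes of ER translocation and vesicle coats 19 had a lower interaction and 1 a higher one (median -0.29). The share called was 32.3%, beside 9.53% of all tested genes. In GC 15 fell and 4 rose, beside 11% and 10.4% of all tested genes. In EC 15 rose and none fell, beside 6.09% and 6.54% of all tested genes. The genes that fell in GC numbered 5 without SpdefKO_GC 5 or 19, 6 without WT_GC 18 and 8 without WT_GC 11 or 13, and those that rose there 2 without SpdefKO_GC 5 or WT_GC 9 and 1 without WT_GC 13. The genes that rose in EC numbered 8 without SpdefKO_EC 4, 7 without WT_EC 12 and 6 without WT_EC 17. With the pairs as a block, which called 13% of all tested genes lower and 12.8% higher, 44 were lower and 2 higher. Sec16a, which organises ER exit sites, fell in GC with a narrow interval in EC (interaction log2 -0.52 ± 0.081, adjusted p = 0.000467), whereas Copb1 moved in opposite directions (log2 -0.28 in GC and 0.24 in EC). The list of ER folding and unfolded protein response genes had 8 lower and 1 higher interaction among 44 (median -0.21), a share of 20.5% called. Under the block 18 were lower and 1 higher. The 8 became 4 without SpdefKO_EC 4 and 5 without SpdefKO_EC 20, SpdefKO_GC 19, WT_EC 10, WT_EC 17 or WT_GC 18. Txndc11 and Txndc12, proteins of the thioredoxin family, had interactions of -0.76 ± 0.14 and -0.65 ± 0.13.

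The counts for metabolic lists depended on single libraries. Among 74 nuclear genes of the respiratory chain and ATP synthase 11 had a lower interaction and none a higher one (median -0.24), with 21 lower in GC (9–13 without SpdefKO_EC 4, WT_EC 10, SpdefKO_GC 5, 7 or 19, or WT_GC 11, 13 or 18). The share with an interaction call was 14.9%, beside 9.53% of all tested genes. The lower interactions numbered 42 with the pairs as a block, which called 13% of all tested genes lower. They numbered 3 without SpdefKO_EC 4, WT_EC 10 or WT_EC 17, 4 without SpdefKO_GC 5, WT_GC 11 or WT_GC 13, 5 without SpdefKO_GC 19, 6 without SpdefKO_EC 8 or SpdefKO_GC 7, and 7 without SpdefKO_EC 20 or WT_GC 18. With upper-quartile scaling there were 5 and without the filter on low counts 7. Cholesterol and fatty acid synthesis had 7 lower interactions of 31 (median -0.28), a share of 22.6% called. In EC 16 genes were higher and none lower, beside 6.09% and 6.54% of all tested genes. In GC 5 were higher and 3 lower, beside 10.4% and 11% of all tested genes. The 5 became 3 without SpdefKO_GC 3, SpdefKO_GC 5 or WT_GC 9. Under the block 15 had a lower interaction, beside 13% of all tested genes. With no block, the lower interactions were 2 without SpdefKO_EC 4, SpdefKO_GC 7, WT_EC 10, WT_EC 17 or WT_GC 13. They were 3 without SpdefKO_GC 19, WT_EC 12 or WT_GC 11. Insig1, which holds back sterol synthesis, fell in GC and rose in EC (log2 -0.31 and 0.35).

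Of 30 absorptive transport genes 3 had a higher and 2 a lower interaction, a share of 16.7% called beside 9.53% of all genes tested. With the pairs as a block, which called 25.8% of all tested genes, 8 were higher and 3 lower. With no block, the higher ones numbered 6 without WT_GC 18 and 5 without SpdefKO_GC 7. They numbered 2 without SpdefKO_GC 19, WT_EC 17, WT_GC 9, WT_GC 11 or WT_GC 13. Of 32 brush border genes 7 had a higher and 1 a lower interaction, a share of 25% called. With the block 11 were higher and 2 lower, and 2 were lower without SpdefKO_EC 6. Slc9a3, a sodium-hydrogen exchanger, rose in both fractions and more in GC (log2 1.79 ± 0.21, adjusted p = 9.89e-06) than in EC (log2 0.58 ± 0.15, adjusted p = 0.0162), an interaction of 1.21 ± 0.26 (adjusted p = 0.00611).

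**Figure D4:**
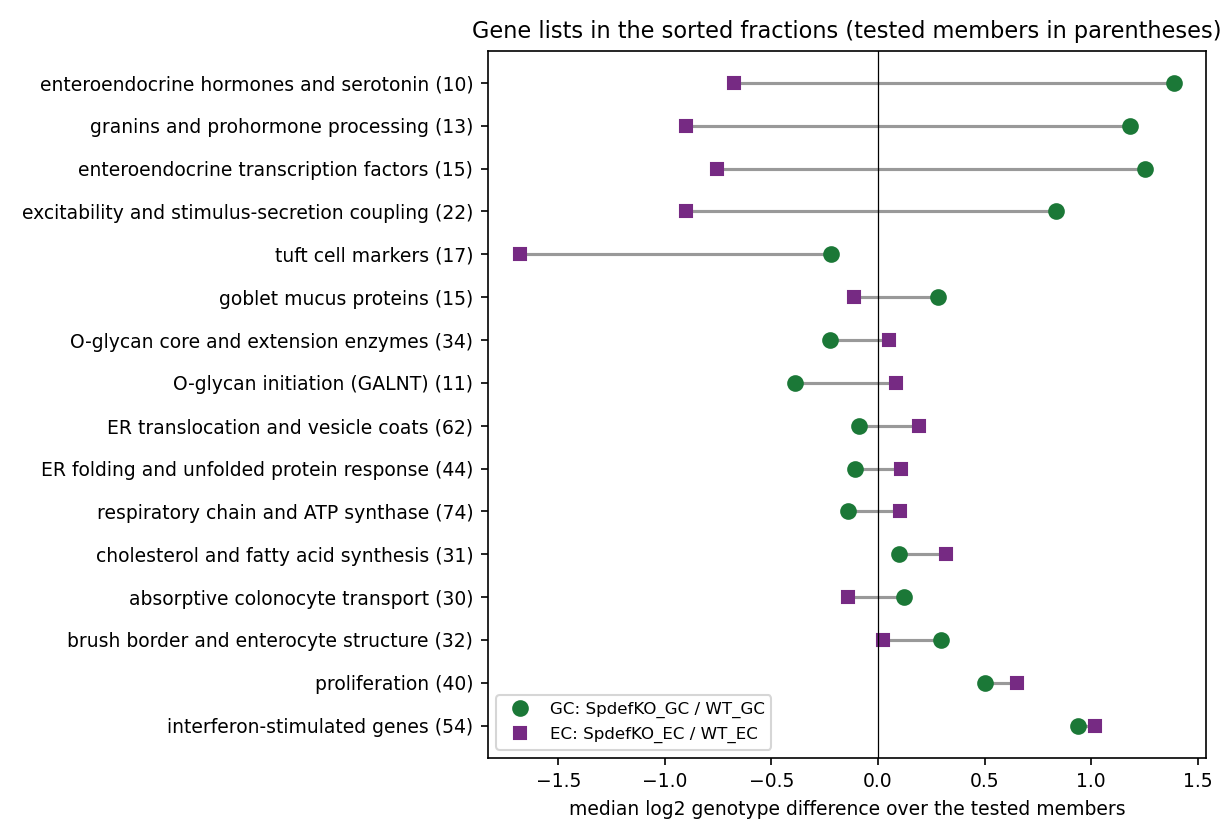
Median log2 genotype difference over the tested members of 16 gene lists, in GC (circles) and in EC (squares), with the number of tested members in parentheses. The enteroendocrine lists lie on opposite sides of 0, tuft markers have a lower median in EC than in GC (-1.68 against -0.22), and proliferation and interferon-stimulated genes are shifted to the right in both fractions.

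Some interferon-stimulated genes and some cell cycle genes were called by genotype in each fraction, and their levels differed among SpdefKO libraries. Of 54 interferon-stimulated genes 23 rose and 2 fell in GC and 25 rose in EC (median log2 0.94 and 1.02), and 1 had a higher and 1 a lower interaction (median -0.0046). These were Irf7 and Rsad2, an antiviral factor and an antiviral enzyme, whose interaction calls were lost in 19 and 22 of 31 alternative fits. With the pairs as a block 4 of these genes were higher and 12 lower, where 25.8% of all tested genes were called. Summed over the 54 genes, SpdefKO_GC libraries 3, 5, 7 and 19 had 1597, 2482, 1118 and 1119 CPM, against 857–1065 CPM in WT_GC. The SpdefKO_EC libraries 4, 6, 8 and 20 had 3304, 3707, 2237 and 1836 CPM, against 1572–1787 CPM in WT_EC. Libraries 5 and 6 were thus the highest of their groups, and SpdefKO_GC 7 and 19 and SpdefKO_EC 20 lay just above the WT range. Without SpdefKO_GC 5 the genes that rose in GC numbered 13, and they numbered 15, 15 and 13 without WT_GC 9, 11 or 13. The genes that rose in EC numbered 14 without SpdefKO_EC 4, and 16 without SpdefKO_EC 6 or without any 1 of the WT_EC libraries.

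Of 40 proliferation genes 10 rose in GC and 15 in EC with none lower. None of the 40 had an interaction call in the edgeR test (median -0.14; 4 lower under the block, beside 13% of all tested genes). Their sums were 4629, 2715, 3955 and 3557 CPM in SpdefKO_GC 3, 5, 7 and 19, against 2101–2928 CPM in WT_GC. In SpdefKO_EC 4, 6, 8 and 20 they were 3893, 2244, 4054 and 2818 CPM, against 1802–2739 CPM in WT_EC. SpdefKO_GC 5 and SpdefKO_EC 6 thus lay inside the WT ranges. In GC 5 genes rose without SpdefKO_GC 3 or WT_GC 9, 6 without WT_GC 18, and 15 without SpdefKO_GC 5. In EC 5 rose without SpdefKO_EC 4, 7 without WT_EC 17 and 8 without WT_EC 10. Without both SpdefKO_GC 5 and SpdefKO_EC 6, 19 rose in GC and 25 in EC. Of 8 MHC class II genes, with close relatives that can share reads, 5 rose in GC, and in EC 7 rose and 1 fell. The interaction was higher in 2 and lower in 1, a share of 37.5% called beside 9.53% of all genes tested. The higher ones were H2-Eb1, whose call was lost in 18 of 31 alternative fits, and Ctss. The lower one was H2-DMb1, a subunit of a peptide-loading chaperone, which rose in EC (log2 2.62) and had -0.060 in GC.

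Within 20 Mb of Spdef on its chromosome 46 of 470 tested genes had an interaction call (9.79%), close to the 9.53% over all tested genes.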

How the data were processed

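Ribosomal-RNA-depleted total RNA was sequenced from 4 groups of 4 libraries. The authors deposited raw counts per gene symbol and a second table of normalized signal, in which each library's counts are divided by a size factor. The submitters' processing notes name STAR 2.4.0f, HTSeq 0.6.1p1, FastQC 0.11.2, DESeq2 1.14 and mm10 without their roles. The sources used here give no annotation, strand setting or filter. The signal table served to check the counts (ratio constant within 1e-06) and to restore 27 gene symbols. The 3 summary entries without a gene held 47.1–54.7% of the counts per library and were left out.

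Counts were fitted in edgeR 4.0.16 (R 4.3.3) with TMM scaling, the filter on low counts by group, 1 coefficient per group and the robust quasi-likelihood test. P-values were Benjamini-Hochberg adjusted over all 12915 tested genes, with a threshold of 0.05. The biological coefficient of variation was 11.7%. Standard errors came from the fitted weights and the quasi-likelihood variance. The fit was also run on simulated libraries drawn without pairs, which cannot show how pairs affect these errors and intervals. CPM are edgeR counts per 1000000 counts of the TMM-adjusted library size. Members and the 34 gene lists were chosen with earlier results of these data known. Named genes are the 4 guide genes and Spdef, the 6 genes with the largest interaction in each of 6 patterns (at least 5 CPM in the highest group, groups not overlapping where changed), 4 per direction under 1 CPM in EC, up to 3 per list with the smallest p, and the 3 genes most like each guide gene. Other list members named were chosen after their values were seen. Some genes that this rule names are not reported here.

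The labels do not state a pairing. Libraries of adjacent numbers of the 2 fractions deviated together in all 8 pairs (correlation 0.131–0.669, each highest with its own partner), so a block was tried, fixed in edgeR and random in limma-voom (limma 3.58.1, consensus correlation 0.442). Alternatives were DESeq2 size factors, upper-quartile scaling, no filter, DESeq2 1.42.0, limma-voom, and leaving out each library. Leaving out both libraries of each pair was chosen after seeing the data. Promoters matched 92 of 117 named genes by symbol.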

Additional observations from a re-analysis of the deposited data

Results flagged for a closer look

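In 148 groups of 4 libraries (30 genes and 7 marker sums in 4 groups each), the highest or lowest library stood apart from the others in 10, where chance flags about 1 in 20. Chgb was at 102 CPM in SpdefKO_GC 3, against 142–144 CPM in the other libraries of its group. Trpm5 was at 11.8 CPM in WT_GC 13, against 9.73–9.88 CPM, and at 4.98 CPM in SpdefKO_GC 19, against 9.40–9.99 CPM. Cacna1d was at 1.34 CPM in WT_EC 12, against 0.653–0.697 CPM. Fcgbp was at 75.5 CPM in SpdefKO_EC 6, against 52.0–52.8 CPM. The sum of tuft markers was 42.1 CPM in WT_GC 13 (31.7–33.2 in the others), 17.4 CPM in SpdefKO_GC 19 (35.7–39.3) and 65.8 CPM in WT_EC 14 (33.6–37.5). The sum of immune markers was 4.89 CPM in WT_GC 18 (3.997–4.07), and that of stromal and vessel markers was 23.8 CPM in WT_EC 17 (7.26–8.37).

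For 10 of the genes shown by library the genotype difference passed in both fractions with opposite signs, and the interaction passed too. Among all 12915 tested genes 116 had such opposite calls. Some of the genes shown were named for the largest opposite changes, so the count of 10 is partly set by that choice. The log2 interaction was 2.50 for Chgb, 1.34 for Guca2a, 2.65 for Gcg, 2.63 for Tph1, 4.17 for Abcg1 and 2.79 for Kif5c. It was -3.00 for Cacna1d, -2.28 for Slfn4, -0.87 for Pmm2 and -0.78 for Dnajc10. Every interaction here was tested with edgeR's quasi-likelihood test.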

How the results depend on the processing

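With the pairs of adjacent libraries as a replicate block, random in limma-voom, 1517 genes were higher and 1550 lower, 1106 were limited to goblet cells and 421 to EC. As fixed effects in edgeR the block gave 1654 higher and 1675 lower. Upper-quartile scaling left 21 genes lower in GC and higher in EC. The cause was not tested. Over leaving out 1 library or both of a pair, the counts ran from 346 to 797 higher, 326 to 718 lower, 300 to 617 limited to goblet cells, 53 to 305 limited to EC, 44 to 100 higher in GC and lower in EC, and 6 to 53 the reverse. Without 1 library, 68.4–92.6% of the 1231 calls were shared. The other alternatives left these 6 counts within 1.5 times. No named gene changed direction in any of 31 alternatives, and 84 of the 114 named genes with a call kept it in all of them. Spdef, A4gnt and Mt3 had no call in edgeR, whereas limma-voom called A4gnt and Mt3, and DESeq2 called A4gnt. Genes under 1 CPM in a fraction are too shallow to measure a change there.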
